A study of Mus musculus with 16 samples.

Results

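The genes of the circadian clock were examined in brain CD11b+ cells, the fraction that holds microglia, in a mouse model of early malnutrition. The 10 genes were taken by name from the count table, and all 10 of the 24421 named rows passed the filter on low counts, which left 14565 genes for testing. They are the activators Arntl and Clock, the repressors Per1, Per2, Per3, Cry1, and Cry2, the nuclear receptors Nr1d1 and Nr1d2, and the output factor Dbp. RNA-Seq was available for 4 libraries of mice on standard chow (CON), 5 of mice on an isocaloric diet low in protein and fat (MAL), and 7 of mice on the same diet that were also given a mix of E. coli and Bacteroidales species by mouth (MAL-BG). All were female C57BL/6J mice with no transgene, newly weaned when the diet began, kept on a light-dark cycle, and fed their diet for 1 month. CON and MAL mice received gavages without bacteria. No group on standard chow with bacteria was analysed here, so an effect of the gavage apart from the diet cannot be told apart from one that needs both. The hour of the day at which brains were collected is not given in the sources used here, which bears on every clock gene described. The labels name cortical tissue, while the study's methods name whole cerebra, dissociated with warm enzymes before magnetic enrichment with CD11b beads.

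The molecular clock is a loop in which ARNTL and CLOCK pair, bind E-box elements, and drive the Per, Cry, Nr1d1, Nr1d2, and Dbp genes. PER and CRY proteins return to block this pair, while NR1D1 and NR1D2 repress Arntl through ROR elements, so that the Arntl transcript runs opposite in phase to Nr1d1 and Dbp over the day. In microglia, clock genes cycle and are known to bear on inflammatory responses and phagocytosis. Per1 and Per2 also respond within an hour or so to light, glucocorticoids, and cAMP, outside the loop.

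Total counts ranged from 10312703 to 13461574 in CON, from 10864121 to 12819982 in MAL, and from 14191791 to 18705202 in MAL-BG, so MAL-BG libraries were deeper throughout. The lowest count of any member in any library was 84, for Per2. Of the 12 microglial markers, 7 rose in MAL-BG relative to CON and none fell. CON replicate 1 stood apart from the other CON libraries in several clock genes, and several fold changes are given with and without it. The study's own model held a batch term, but no library could be assigned to a batch here, so every test leaves batch out, and its part in the results was not tested. P values therefore measure only the spread between these libraries, which may in part be technical.

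Sequence near the RefSeq start site (build GRCm38.p6) is shown for 4 members, the 2 with a canonical E-box, the 1 with D-boxes, and the 1 with a ROR element, to set beside the values of their transcripts. A window of 250 bases before to 50 bases after the start was found for 9 of the 10 members, and Per2 had no entry. The canonical E-box, CACGTG, lay 166 bases before the start of Per1 and 60 bases before that of Cry1. It was present in 7.15% of 32851 such windows. In the stretches that follow, letters in capitals mark the matched elements.
Per1, chr11:69098699-69098948, plus strand, with 1 E-box: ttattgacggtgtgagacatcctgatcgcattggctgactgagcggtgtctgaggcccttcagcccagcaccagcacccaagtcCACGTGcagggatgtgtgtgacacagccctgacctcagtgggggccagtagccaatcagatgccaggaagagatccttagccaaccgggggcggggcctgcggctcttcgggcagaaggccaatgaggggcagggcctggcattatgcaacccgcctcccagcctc
Cry1, chr10:85185055-85185304, minus strand, with 1 E-box and 1 E-box variant (CACGTT, here read on the other strand): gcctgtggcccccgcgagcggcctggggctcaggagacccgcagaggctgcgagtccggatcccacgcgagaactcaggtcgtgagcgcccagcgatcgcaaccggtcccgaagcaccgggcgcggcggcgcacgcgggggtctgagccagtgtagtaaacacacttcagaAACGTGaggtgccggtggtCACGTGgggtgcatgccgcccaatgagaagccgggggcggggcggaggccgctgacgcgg
Per3, chr4:151044666-151044915, minus strand, with 2 D-boxes (TTATGTAA): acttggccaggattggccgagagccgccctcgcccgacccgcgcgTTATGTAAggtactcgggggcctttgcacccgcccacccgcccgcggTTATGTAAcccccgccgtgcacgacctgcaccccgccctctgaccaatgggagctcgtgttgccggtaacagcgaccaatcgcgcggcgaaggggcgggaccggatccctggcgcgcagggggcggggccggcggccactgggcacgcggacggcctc
Arntl, chr7:113207526-113207555, plus strand, 30 bases of a second window just after its start, with 1 ROR element: agggaaggcagaaagTAGGTCAgggacgga
The E-box variant CACGTT was in 4.68% of windows, and among members in Cry1, Cry2, and Nr1d1. The D-box (TTATGTAA or TTACGTAA), which DBP and its relatives bind, was in 1.06% of windows and in Per3 at 205 and 158 bases before the start. The ROR element, TAGGTCA, was in 2.61% and lay 30 bases after a start of Arntl. A full cAMP response element, TGACGTCA, was in 1.79% of windows and in 0 of the 9 members. Each was searched on both strands, and a match describes only the letters in the window.

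The question of the main comparison was how malnutrition together with bacterial exposure changed these cells relative to healthy mice. In MAL-BG, 5 clock genes fell relative to CON and 0 rose. These were Per1, Per2, Cry2, Nr1d1, and Dbp, and the fall ranged from 1.58-fold for Cry2 to 6.13-fold for Per1. A gene was called at an adjusted p under 0.05 with an absolute log2 fold change above 0.58, in the quasi-likelihood test of edgeR with adjustment over all genes tested. By the same rule 21.7% of all genes tested fell and 11.4% rose. The median log2 fold change of the 10 members was -0.52, beside -0.04 for all genes. On the adjusted p alone, 6 members were lower and 1 was higher, beside 25.2% and 19.8% of all genes. DESeq2 also called 5 members. Under some other scalings Arntl was called higher, as given below.

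**Figure D1:**
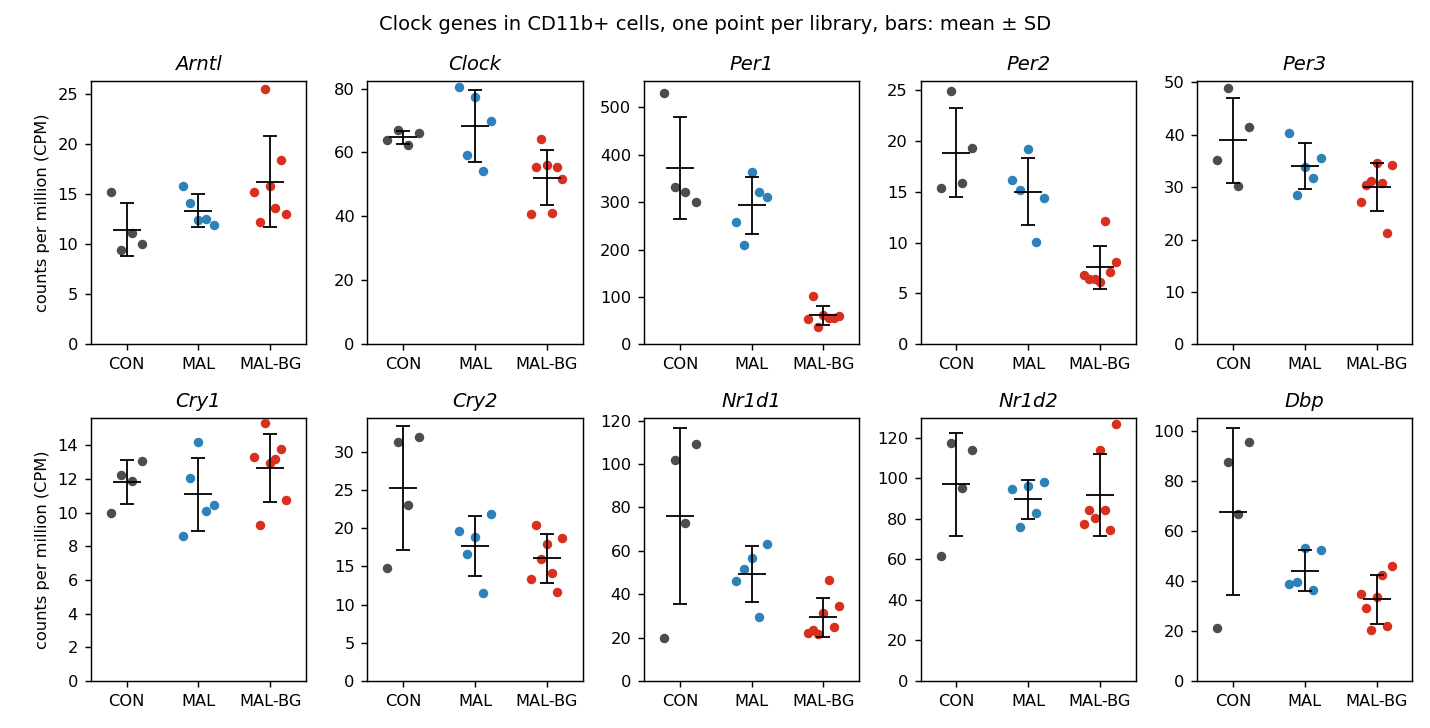
Level in CPM (vertical axis from 0, scaled to the library total) of each clock gene in every library of CON, MAL, and MAL-BG, 1 point per library, with the group mean and SD as bars. Per1 sat between 37.1 and 101 CPM in the 7 MAL-BG libraries and between 210 and 531 CPM in the other 9, while Nr1d2 and Cry1 overlapped across all groups.

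Among the repressors, Per1 showed the widest shift of the 10 members. Its levels were 531, 332, 323, and 301 CPM in CON, and 259, 210, 364, 321, and 312 CPM in MAL. The 7 MAL-BG libraries ran from 37.1 to 101 CPM with a median of 55.8. Every MAL-BG library was below every CON and MAL library, which was true of 6.36% of all genes tested. Per1 was 6.13-fold lower in MAL-BG than in CON (log2 fold change -2.62 ± 0.22 SE, adjusted p = 2.19e-06) and 4.83-fold lower than in MAL (-2.27 ± 0.21, adjusted p = 6.37e-06). In bulk libraries such as these, fewer cells of a type and less RNA per cell cannot be told apart.

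Per2, whose protein works beside PER1 in the repressive complex, was far less abundant. It stood at 15.4, 25.0, 15.8, and 19.3 CPM in CON and at 16.2, 15.2, 19.3, 10.1, and 14.4 CPM in MAL. In MAL-BG it ran from 6.10 to 12.1 CPM with a median of 6.84. All MAL-BG libraries lay below CON, and 1 of them, replicate 5, lay above the lowest MAL library. Per2 was 2.49-fold lower in MAL-BG than in CON (-1.31 ± 0.21, adjusted p = 1.70e-04) and 1.98-fold lower than in MAL (-0.99 ± 0.20, adjusted p = 9.63e-04). The calls for Per1 and Per2 held in both comparisons in all 28 alternative settings, which include leaving out each library in turn.

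Per3, the family member least needed for rhythm, moved little. It measured 35.1, 48.9, 30.3, and 41.5 CPM in CON, 40.4, 28.4, 33.9, 31.8, and 35.5 CPM in MAL, and 21.3 to 34.6 CPM (median 30.8) in MAL-BG. The groups overlapped, and the log2 fold change from CON was -0.38 ± 0.15 (adjusted p = 0.0462), inside the fold threshold. Against MAL it was -0.18 ± 0.14 (adjusted p = 0.297), a sign that turned under scaling by the mean log2 CPM and under offsets for length and GC content. The 3 Per genes therefore ran from 1.30-fold to 6.13-fold lower in MAL-BG than in CON, with Per3 not past the fold threshold.

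The cryptochromes, the partners of PER in the repressor complex, differed from each other in their calls. Cry1 stood at 9.98, 12.2, 11.9, and 13.1 CPM in CON, at 8.60, 12.1, 14.2, 10.1, and 10.4 CPM in MAL, and at 9.27 to 15.3 CPM (median 13.2) in MAL-BG. Its groups overlapped, with log2 fold changes of 0.10 ± 0.16 from CON (adjusted p = 0.640) and 0.19 ± 0.15 from MAL (adjusted p = 0.320). Cry2 stood at 14.7, 31.4, 23.1, and 31.9 CPM in CON, at 19.6, 16.6, 18.8, 11.5, and 21.9 CPM in MAL, and at 11.6 to 20.5 CPM (median 15.99) in MAL-BG. For Cry2, 3 of the 4 CON libraries lay above all MAL-BG libraries, and CON replicate 1 lay within their range. Cry2 fell 1.58-fold from CON (-0.66 ± 0.21, adjusted p = 0.0193) and gave -0.14 ± 0.20 against MAL (adjusted p = 0.587). Without CON replicate 1 the log2 fold change from CON was -0.87 (adjusted p = 0.00185). The call was lost in 6 of 28 settings, among them without CON replicate 2 (-0.56, adjusted p = 0.0714), CON replicate 4 (-0.54, adjusted p = 0.0765), or MAL-BG replicate 1 (-0.56, adjusted p = 0.0429). Cry2 shares 295 exonic bases with D930015M05Rik on the opposite strand.

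Of the nuclear receptors, Nr1d1 fell and Nr1d2 did not pass the test. Nr1d1 (REV-ERBα) stood at 19.96, 102, 73.0, and 109 CPM in CON and at 45.9, 51.5, 56.5, 29.3, and 63.2 CPM in MAL. In MAL-BG it ran from 21.8 to 46.6 CPM with a median of 25.1. CON replicate 1 was below every MAL-BG library, and the other 3 CON libraries were above all of them. Nr1d1 was 2.60-fold lower in MAL-BG than in CON (-1.38 ± 0.33, adjusted p = 0.00311). Without CON replicate 1 the log2 fold change was -1.71 (adjusted p = 7.68e-05), and the call held in all 28 settings.

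Against MAL, Nr1d1 gave -0.75 ± 0.31 (adjusted p = 0.0607) and was called in 7 of 28 settings, DESeq2 (adjusted p = 0.0475) and a fit of these 2 groups alone (adjusted p = 0.0121) among them. The call also appeared without CON replicate 1 (-0.76, adjusted p = 0.00894), without MAL replicate 4 (-0.90, adjusted p = 0.0328), and without MAL-BG replicate 5 (-0.92, adjusted p = 0.0274). The last exons of Nr1d1 overlap those of Thra, a thyroid hormone receptor gene on the opposite strand, by 263 bases. Thra itself measured -0.74 ± 0.24 against CON (adjusted p = 0.0169), and whether counting used strand is not given in the sources used here.

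Nr1d2 (REV-ERBβ), which shares the repressor role of Nr1d1, overlapped across the groups. It stood at 61.8, 117, 95.0, and 114 CPM in CON, at 94.4, 76.0, 96.2, 82.8, and 98.3 CPM in MAL, and at 74.6 to 127 CPM (median 84.1) in MAL-BG. Its log2 fold changes were -0.08 ± 0.18 from CON (adjusted p = 0.726) and 0.03 ± 0.16 from MAL (adjusted p = 0.888). Both signs turned when single libraries were left out, and the one against CON also turned under scaling by the mean log2 CPM.

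Dbp, a PAR-domain factor that carries the rhythm to output genes, followed the pattern of Nr1d1. It stood at 21.04, 87.9, 66.9, and 95.8 CPM in CON, at 38.7, 39.5, 53.4, 36.3, and 52.6 CPM in MAL, and at 20.3 to 46.2 CPM (median 33.6) in MAL-BG. Again CON replicate 1 sat among the lowest libraries, and the other 3 CON libraries were above all 12 MAL and MAL-BG libraries. Dbp fell 2.08-fold from CON (-1.06 ± 0.30, adjusted p = 0.00906), or by 1.37 on the log2 scale without CON replicate 1 (adjusted p = 1.84e-04). Against MAL it gave -0.43 ± 0.29 (adjusted p = 0.226). The call against CON was lost in 1 of 28 settings, that of mean log2 CPM scaling together with length and GC offsets (-0.64, adjusted p = 0.0696). Dbp shares 539 exonic bases with Sphk2 on the opposite strand, which gave 0.54 ± 0.15 against CON (adjusted p = 0.00793), the other direction.

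The activators showed smaller differences. Arntl (BMAL1) was the least abundant activator, at 15.3, 9.46, 11.1, and 9.99 CPM in CON and at 15.8, 14.2, 12.4, 12.5, and 11.9 CPM in MAL. In MAL-BG it ran from 12.2 to 25.5 CPM with a median of 15.2. CON replicate 1 lay within the MAL-BG range and the other 3 CON libraries lay below it. The log2 fold change of Arntl was 0.50 ± 0.20 from CON (adjusted p = 0.0484), short of the fold threshold, and 0.28 ± 0.18 from MAL (adjusted p = 0.218). Arntl passed the call against CON in 8 of 28 settings. Among them were mean log2 CPM scaling (0.73, adjusted p = 0.00830), length and GC offsets (0.67, adjusted p = 0.0102), and both together (0.89, adjusted p = 0.00184). Both together also gave a call against MAL (0.67, adjusted p = 0.00714). The call against CON also appeared without CON replicate 1 (0.66, adjusted p = 0.0161), without MAL-BG replicate 2 (0.62, adjusted p = 0.0267), and without MAL-BG replicate 7 (0.61, adjusted p = 0.0326). Without MAL-BG replicate 3, the library with 25.5 CPM, it was 0.36 (adjusted p = 0.0917).

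Clock, the partner of ARNTL, stood at 63.8, 67.0, 62.3, and 65.9 CPM in CON, at 80.4, 59.1, 77.4, 54.2, and 69.9 CPM in MAL, and at 40.7 to 64.2 CPM (median 55.4) in MAL-BG. The groups overlapped. Clock gave -0.31 ± 0.13 against CON (adjusted p = 0.0651) and -0.39 ± 0.12 against MAL (adjusted p = 0.0187), both inside the fold threshold.

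**Figure D2:**
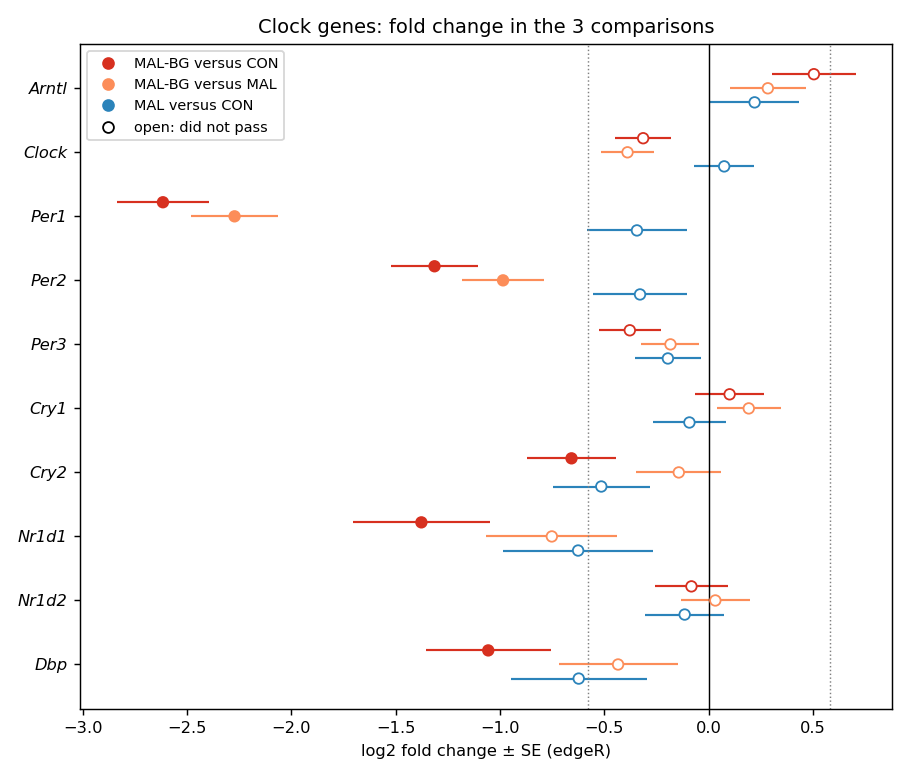
Log2 fold change (horizontal axis) of the 10 clock genes with its standard error as bars, for MAL-BG against CON or MAL and for MAL against CON, where filled points passed the call and dotted lines mark 0.58 on either side of 0. Per1 and Per2 lie past the threshold in both MAL-BG comparisons, and no point of MAL versus CON is filled.

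The second comparison asks what the bacteria added to the diet, and it shares its 7 MAL-BG libraries with the first. Per1 and Per2 fell in MAL-BG relative to MAL and 0 members rose, with 20.2% of all genes tested lower and 10.2% higher by the same rule. The median of the 10 members was -0.29, beside -0.03 for all genes. On the adjusted p alone 3 members, Per1, Per2, and Clock, were lower and 0 higher, beside 24.1% and 20.2% of all genes. DESeq2 called 3 members, Nr1d1 being the added one. Scaling by the mean log2 CPM moved the median of all genes from -0.04 to 0.21 against CON and from -0.03 to 0.19 against MAL. The share of all calls that were higher then moved from 34.4% to 57.8% and from 33.4% to 58.3%. Relative to that shift the 4 clock genes Per1, Per2, Nr1d1, and Dbp kept their calls against CON, and Per1 and Per2 kept theirs against MAL. Against CON, Cry2 lost its call (-0.39, adjusted p = 0.107) and Arntl was called higher (0.73, adjusted p = 0.00830).

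The third comparison, MAL versus CON, asks what the diet did alone. No clock gene was called and neither was any other gene, so 0% of genes tested passed. At an unadjusted p under 0.05, the quasi-likelihood test of edgeR counted 212 genes, of which 1 was a member, Cry2 (-0.51 ± 0.23, adjusted p = 0.999). DESeq2 called 0 members and also counted 1 at that unadjusted level. The log2 fold changes of Nr1d1 (-0.63 ± 0.36) and Dbp (-0.62 ± 0.33) lay further from 0 than that of Cry2, with wider errors. For Per1 the value was -0.34 ± 0.24 and for Per2 -0.33 ± 0.23. Without CON replicate 1, Nr1d1 gave -0.95 and Dbp -0.93, each with an adjusted p of 0.622. Differences of this size between CON and MAL could not be told from the spread between libraries.

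Levels were also set per kilobase of exon, so that genes can be compared with each other. In CON, Per1 was the most abundant member at 66.0 ± 19.01 CPM per kb (SD, n = 4), followed by Nr1d1 at 24.7 ± 13.2, Dbp at 22.7 ± 11.2, and Nr1d2 at 17.9 ± 4.69. The spread of the last 3 overlapped. Clock, Per3, Cry2, Cry1, and Per2 followed between 3.22 and 4.72 CPM per kb, and Arntl was lowest at 1.52 ± 0.35. In MAL-BG the order at the top had turned, with Nr1d2 at 16.9 ± 3.74 CPM per kb (n = 7), Dbp at 10.9 ± 3.23, Per1 at 10.8 ± 3.49, and Nr1d1 at 9.51 ± 2.93, the last 3 within each other's spread. Per2, at 1.29 ± 0.36, had become the lowest. The biological coefficient of variation within groups placed Nr1d1 at percentile 74.0 of all genes tested and Dbp at percentile 70.3, while Clock stood at percentile 20.7 and Per3 at percentile 28.8.

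Arntl was compared with each of the other 9 members, in the 9 CON and MAL libraries pooled and in the 7 MAL-BG libraries. This gave 18 relations. In the pooled set, a difference between CON and MAL can enter the coefficient. In MAL versus CON the log2 fold change was 0.22 ± 0.21 SE for Arntl and -0.62 ± 0.33 for Dbp, neither called. Exact two-sided permutation tests were used, with Benjamini-Hochberg adjustment over the 18. In CON and MAL, log2 CPM of Arntl ran opposite to that of Dbp (Pearson r = -0.89, exact p = 0.00152, adjusted p = 0.0273). The Spearman rho of this pair was -0.88 (exact p = 0.00308, adjusted p = 0.0277), and r was -0.94 without the 2 libraries farthest from the median of Arntl. This was the 1 relation of 18 past the threshold by r, and 3 passed by rho. The others by rho were Nr1d1 (rho = -0.90, exact p = 0.00203, adjusted p = 0.0277; r = -0.79, exact p = 0.0103, adjusted p = 0.0727) and Nr1d2 (rho = -0.85, exact p = 0.00607, adjusted p = 0.0364; r = -0.78, exact p = 0.0121, adjusted p = 0.0727). Without the 2 farthest libraries r was -0.84 for Nr1d1 and -0.94 for Nr1d2.

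Leaving out 1 of the 9 libraries kept the r of Arntl with Dbp between -0.94 and -0.86, while its adjusted p rose past 0.05 for 7 of the 9 (every CON library and MAL replicates 2, 3, and 5). With CON and MAL each taken around its own mean, the number of relations past the threshold stayed at 1. In MAL-BG no relation passed. Arntl and Dbp gave r = -0.79 there (exact p = 0.0294, adjusted p = 0.0904; rho = -0.64, exact p = 0.139), which was -0.94 and past the threshold without MAL-BG replicate 2 (adjusted p = 0.0137). Arntl and Cry1 gave r = -0.63 in CON and MAL (exact p = 0.0699, adjusted p = 0.157) and r = 0.82 in MAL-BG (exact p = 0.0246, adjusted p = 0.0904; rho = 0.89, exact p = 0.0123), a difference that was not tested. Arntl and Per1 gave r = -0.80 in MAL-BG (exact p = 0.0492, adjusted p = 0.127), and this rests on 2 libraries, since r was -0.09 without MAL-BG replicates 2 and 3.

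**Figure D3:**
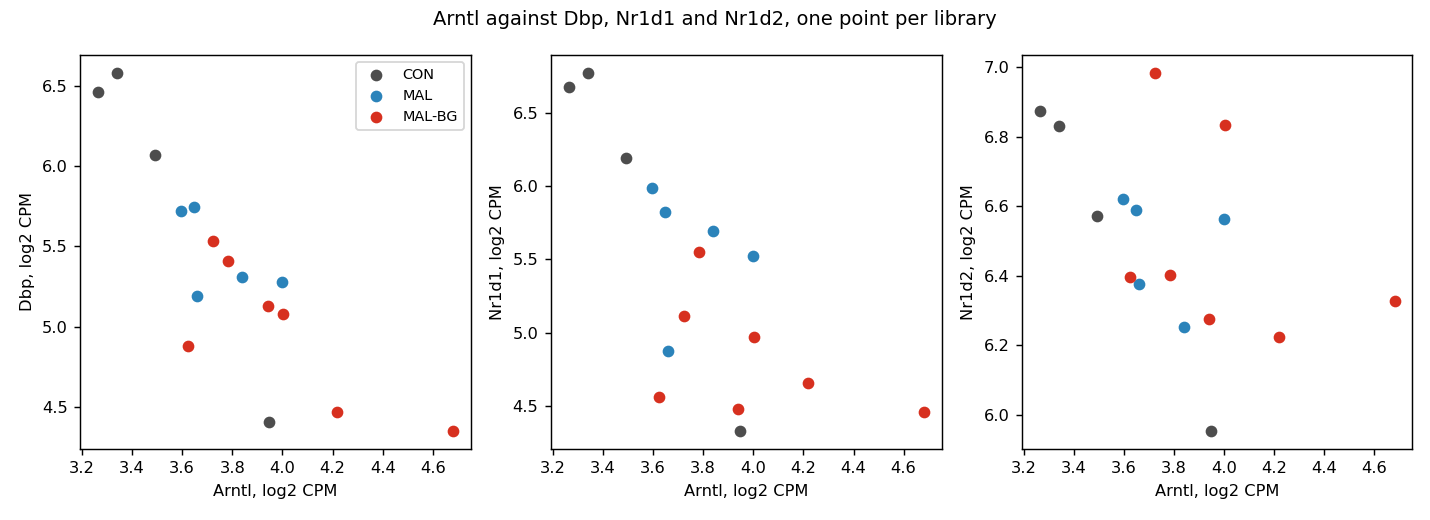
Log2 CPM of Arntl (horizontal axis) against log2 CPM of Dbp, Nr1d1, and Nr1d2 (vertical axes), 1 point per library, coloured by group. In the 9 CON and MAL libraries Dbp declines as Arntl rises (r = -0.89), and CON replicate 1 is the CON point lowest in all 3 panels.

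Measured over deviations from the 3 group means in all 16 libraries, Nr1d1 and Dbp were near the top of each other's ranks. Nr1d1 was the 1st of 14564 other genes in likeness to Dbp (r = 0.91), and Dbp was the 2nd for Nr1d1. The remaining 4 of the 5 genes most like Dbp were Gamt, Ankrd63, Glod4, and Morf4l1 (r from 0.85 to 0.88), and Nr1d2 stood 13th. For Nr1d1 they were Ankrd63, Erc2, Anks1b, and Nap1l2 (r from 0.87 to 0.91), of which Erc2 and Anks1b are known as synaptic genes of neurons. Dbp was the 6th from the lowest for Arntl (r = -0.77), and the 5 genes most like Arntl were Dzip3, Zfp180, Ercc4, Irgm2, and Zfp84 (r from 0.71 to 0.80). These likenesses are descriptions, and the libraries share preparation and depth. They were not computed without CON replicate 1, the lowest CON library in Nr1d1 (19.96 CPM) and Dbp (21.04 CPM). How far the r values and ranks rest on that library was not tested.

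Markers of other cells also differed in MAL-BG, some lower and some higher. All 9 neuronal markers (led by Nrgn, Snap25, and Map2) fell in MAL-BG relative to both CON and MAL. Their summed level was 63.2 to 317 CPM in CON, 90.1 to 264 CPM in MAL, and 14.6 to 52.8 CPM in MAL-BG, and Gad2 was at 0 in at least 1 library. CON replicate 1, the library low in Nr1d1 and Dbp, also had the lowest neuronal sum of the CON libraries. That sum was 63.2 CPM, against 230 to 317 in the others. This library was also the lowest of CON in choroid plexus markers, at 10770 CPM against 21677 to 41544. The same held for astrocyte markers (277 against 507 to 610 CPM) and for endothelial and mural markers (513 against 1096 to 2028 CPM). Its sums of microglial, neutrophil, and border macrophage markers were the highest of CON. All 10 choroid plexus markers, 6 of 7 ependymal markers, and 5 of 8 astrocyte markers fell relative to CON. Of 8 neutrophil markers tested 7 rose, with a summed level of 472 to 1217 CPM in CON and 536 to 11470 CPM in MAL-BG. The highest sum was in MAL-BG replicate 5, which was also the highest in Per2 and Nr1d1 of its group. In CON this sum was mostly Csf3r, the tested marker that did not rise (log2 fold change -0.40). Csf3r had a mean of 604 CPM in CON, and S100a9, the next most abundant there, 46.4 CPM.

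To set these values beside the clock genes, each member was related to the summed neuronal and early response markers within the same sets of libraries, 40 relations chosen after the data had been seen. In CON and MAL, the neuronal sum ran with Nr1d1 (r = 0.91, exact p = 7.69e-04, adjusted p = 0.0308; rho = 0.85, exact p = 0.00607, adjusted p = 0.0661) and with Dbp (r = 0.85, exact p = 0.00314, adjusted p = 0.0314; rho = 0.78, exact p = 0.0172, adjusted p = 0.0765). Without CON replicate 1 and MAL replicate 4, the farthest 2, r was 0.66 and 0.64. Within MAL-BG the same relations had the opposite sign and did not pass (r = -0.47 for Nr1d1, exact p = 0.278, and r = -0.31 for Dbp, exact p = 0.477). In all, 6 of the 40 passed by r and 0 by rho, and the other 4 involve the early response sum, described next. The part of neuronal RNA in the levels of Nr1d1 and Dbp was not tested. Relations of members to the sums of choroid plexus, astrocyte, or endothelial markers were not computed, so the values above do not single out neurons.

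**Figure D4:**
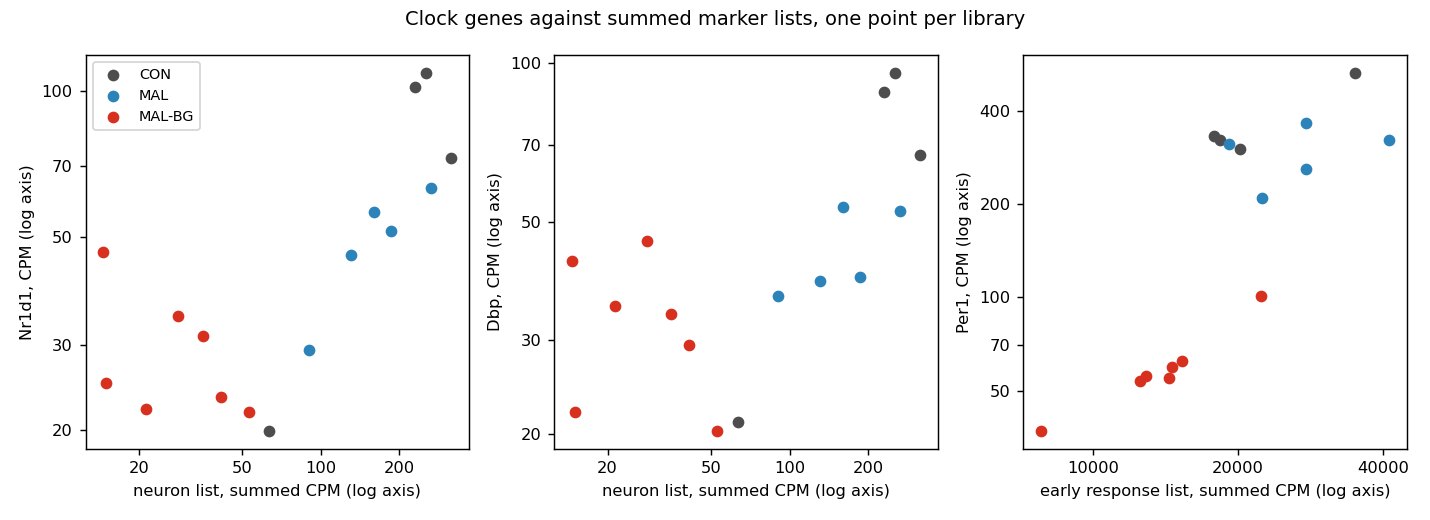
Nr1d1 and Dbp against the summed neuronal markers and Per1 against the summed early response markers, all in CPM on log axes, 1 point per library, coloured by group. In the right panel the MAL-BG libraries lie apart from CON and MAL in Per1, and the library of MAL-BG with the highest early response sum, 22305 CPM, has 101 CPM of Per1, below the 9 CON and MAL libraries.

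Early response genes, which are induced within minutes by stimulation or by tissue dissociation, also differed. In MAL-BG, 6 of 10 (Fosb, Egr1, Ier2, Dusp1, Atf3, and Nr4a1, named here after their values were seen) fell relative to CON and 9 of 10 relative to MAL, where Jun, at -0.67 (adjusted p = 0.0738), did not pass. Their summed level, led by Jun, Junb, and Fos, was 17842 to 34974 CPM in CON, 19113 to 41243 CPM in MAL, and 7769 to 22305 CPM in MAL-BG. Within MAL-BG, Per1 ran with this sum (r = 0.97, exact p = 0.00635, adjusted p = 0.0423; rho = 0.96, exact p = 0.00278, adjusted p = 0.0661; r = 0.83 without the farthest 2 libraries). In CON and MAL it did not pass (r = 0.35, exact p = 0.360). There the early response sum ran opposite to Nr1d1 (r = -0.87, exact p = 0.00200, adjusted p = 0.0314; rho = -0.87, exact p = 0.00451, adjusted p = 0.0661) and to Cry2 (r = -0.86, exact p = 0.00279, adjusted p = 0.0314; rho = -0.83, exact p = 0.00827, adjusted p = 0.0661). Without CON replicate 1 and MAL replicate 4, r was -0.72 for Nr1d1 and -0.64 for Cry2. Nr1d1 thus followed both marker sums in these libraries, with opposite signs. In MAL-BG, Arntl ran opposite to the early response sum (r = -0.89, exact p = 0.00536, adjusted p = 0.0423; rho = -0.71, exact p = 0.0881, adjusted p = 0.235), and r was -0.45 without MAL-BG replicates 2 and 3. MAL-BG replicate 2 had an early response sum of 22305 CPM, above 4 of the 9 CON and MAL libraries, with 101 CPM of Per1. Of 11 glucocorticoid-induced genes, 8 fell and 1, Sgk1, rose relative to CON, while 6 fell and 0 rose relative to MAL. Of the most abundant, Mt1 gave -1.22 (adjusted p = 6.88e-04) and Tsc22d3 -0.55 (adjusted p = 0.125) against CON. The summed level of the list was 1237 to 2245 CPM in CON, 1353 to 2287 CPM in MAL, and 1277 to 1790 CPM in MAL-BG. Sgk1, the most abundant, weighs on this sum, with a mean of 549 CPM in CON and 1010 CPM in MAL-BG. The part of either response in the levels of Per1, Per2, Nr1d1, Cry2, and Arntl was not tested.

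A further 27 genes linked to the clock were followed as a group, of which 26 were tested and Noct was not matched. Relative to CON, 5 of 26 rose and 5 fell, beside 11.4% of all genes tested that rose and 21.7% that fell, with a median log2 fold change of -0.04 in both. Relative to MAL, 4 of 26 rose and 4 fell, beside 10.2% and 20.2% of all genes, with medians of 0.05 and -0.03. No gene of the list was called in MAL versus CON.

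Among the transcriptional repressors of the list, Bhlhe40 and Nfil3 had the largest falls. Bhlhe40 (DEC1), which competes for E-boxes, stood at 28.2, 87.6, 62.8, and 95.8 CPM in CON, at 42.3, 50.4, 69.2, 33.2, and 57.4 CPM in MAL, and at 13.3 to 22.7 CPM (median 17.5) in MAL-BG. It fell 3.82-fold from CON (-1.93 ± 0.25, adjusted p = 4.42e-05) and 2.81-fold from MAL (-1.49 ± 0.24, adjusted p = 2.08e-04). Nfil3 (E4BP4), which competes with DBP for D-boxes, stood at 36.9 to 54.6 CPM in CON, 35.1 to 42.6 in MAL, and 11.1 to 21.6 in MAL-BG. It fell 3.18-fold from CON (-1.67 ± 0.16, adjusted p = 4.58e-06) and 2.51-fold from MAL (-1.33 ± 0.15, adjusted p = 1.75e-05). For both genes every MAL-BG library was below every CON and MAL library, as for 6.36% of all genes tested. The calls of both held in all 28 settings.

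Bhlhe41 (DEC2), the close relative of Bhlhe40, went the other way, with 150 ± 43.1 CPM in CON (SD, n = 4), 157 ± 36.4 in MAL (n = 5), and 256 ± 29.6 in MAL-BG (n = 7). It rose 1.71-fold from CON (0.77 ± 0.18, adjusted p = 0.00259) and 1.63-fold from MAL (0.70 ± 0.17, adjusted p = 0.00293). Hlf, a PAR-domain relative of Dbp, fell 2.07-fold from CON (-1.05 ± 0.25, adjusted p = 0.00278) and 1.67-fold from MAL (-0.74 ± 0.23, adjusted p = 0.0168), the latter lost in 2 settings. In Hlf and Bhlhe40 CON replicate 1 was again the lowest CON library, at 15.9 and 28.2 CPM.

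The called enzymes Csnk1d, Csnk1e, and Usp2 rose in both comparisons. Csnk1d and Csnk1e, the kinases that mark PER proteins for breakdown, rose 1.57-fold (0.65 ± 0.11, adjusted p = 2.11e-04) and 1.63-fold (0.71 ± 0.18, adjusted p = 0.00446) from CON, and 1.60-fold and 1.64-fold from MAL. Csnk1d ran from 171 to 207 CPM over the 9 CON and MAL libraries and from 252 to 356 CPM in MAL-BG. The share of all genes with MAL-BG wholly above the other libraries was not counted. Usp2, a deubiquitinase that acts on PER1, rose 2.42-fold from CON (1.27 ± 0.25, adjusted p = 8.99e-04) and 2.23-fold from MAL (1.16 ± 0.23, adjusted p = 9.97e-04). The calls of these 3 held in all 28 settings.

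The last called genes of the list were less firm. Rorb fell 2.86-fold from CON (-1.52 ± 0.44, adjusted p = 0.0101) at levels of only 0.249 to 3.78 CPM, and its call against MAL was lost in 15 of 28 settings. Ciart, a repressor of the activator pair, fell 1.66-fold from CON (-0.73 ± 0.26, adjusted p = 0.0275) and lost the call in 7 settings. Kdm5a, a histone demethylase, rose 1.59-fold from CON (0.67 ± 0.24, adjusted p = 0.0345) and lost the call in 6.

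**Figure D5:**
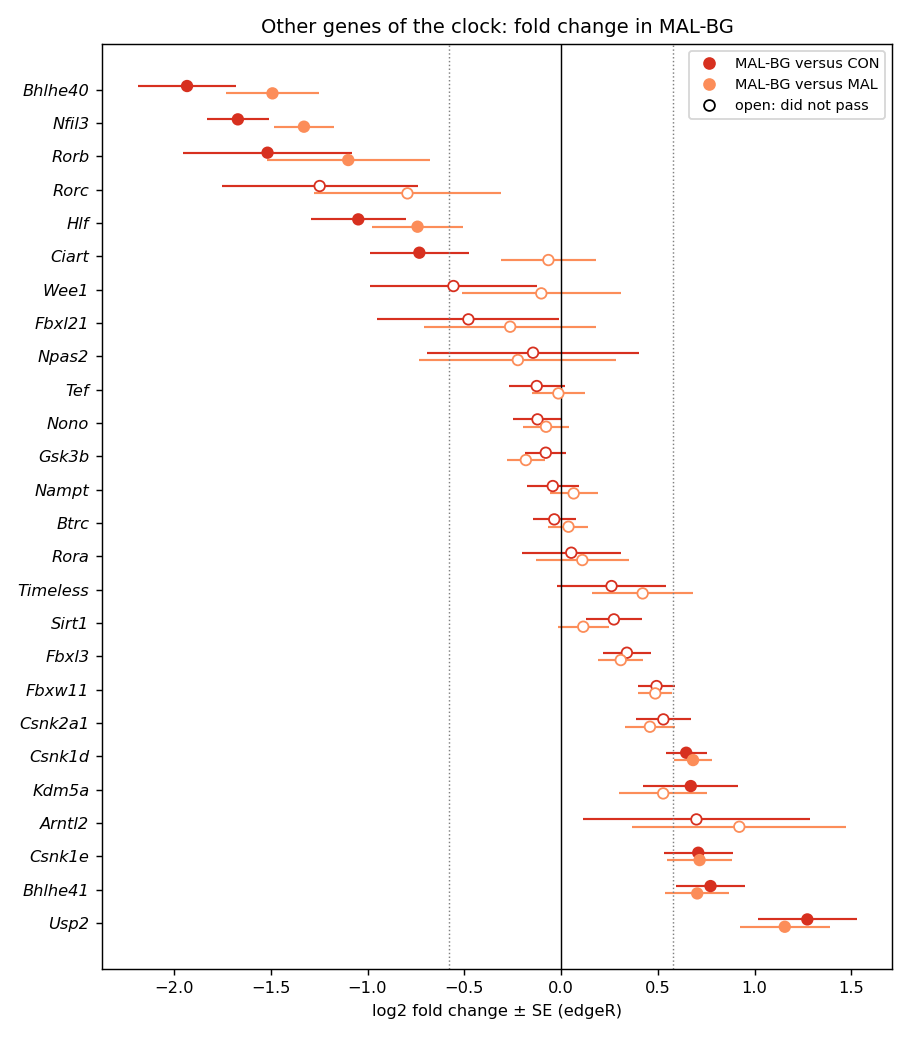
Log2 fold change (horizontal axis) with its standard error as bars for the 26 other clock genes in MAL-BG against CON or MAL, ordered by the value against CON, where filled points passed the call and dotted lines mark 0.58 on either side of 0. Bhlhe40 at -1.93 and Usp2 at 1.27 are the ends of the range against CON.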

How the data were processed

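RNA-Seq profiles of CD11b+ cells were available from 16 libraries (CON, n = 4; MAL, n = 5; MAL-BG, n = 7). Per the labels and methods, the authors prepared stranded mRNA libraries, mapped paired reads to GRCm38 with STAR, and counted them per gene with HTSeq. The deposited values are raw counts, not normalized. The strand option and annotation used for counting are not given in the sources used here. Groups came from the names of the columns, whose running numbers match no sample title, and the batch term of the authors' own model could not be fitted, which leaves batch out of every test.

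A gene entered the test when 4 or more libraries held over 10 counts (14565 of 24421 rows). It was fitted in R 4.3.3 by edgeR 4.0.16 (quasi-likelihood test), with TMM scaling, 3 groups in 1 fit, and Benjamini-Hochberg adjustment within each comparison. CPM are counts scaled to the library total after TMM, and log2 CPM used a prior count of 2. SE was taken from the fold change and its F statistic. Relations used exact permutation tests in Python 3.11.15. DESeq2 1.42.0 was an alternative, with other scalings, filters, thinning to 10312703 counts per library, length and GC offsets (99.29% of genes had both values), and each library left out. Positions, exon overlaps, and lengths came from GENCODE M21, and windows from RefSeq. The steps were tested on simulated data.

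All 10 clock genes were named in every comparison. Other clock genes were named when called, at most 12. Marker lists were given by up to 3 of their most abundant genes. These members, lists, and rules were chosen with earlier results of these data known. Of the remaining marker lists against CON, oligodendrocyte genes had 3 higher and 1 lower of 8, endothelial and mural genes 2 higher and 1 lower of 8, monocyte genes 2 lower of 6, border macrophage genes 0 of 6, and lymphocyte genes 1 higher of 4 tested.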

Additional observations from a re-analysis of the deposited data

Results flagged for a closer look

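In 30 sets of values (10 clock genes in 3 groups), a single library stood apart from the rest of its group 3 times by the 95% criterion of Dixon, where chance gives about 1.5. Per1 in CON replicate 1 was 531 CPM, with the next CON library at 332. Per1 in MAL-BG replicate 2 was 101 CPM, with the next at 62.5. Per2 in MAL-BG replicate 5 was 12.1 CPM, with the next at 8.09. Without CON replicate 1 the log2 fold change of Per1 from CON was -2.41 (adjusted p = 1.79e-06), and without both CON replicate 1 and MAL-BG replicate 2, left out together after seeing the data, it was -2.48 (adjusted p = 1.92e-06).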

How the results depend on the processing

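No paired analysis was possible because the running numbers of the columns match no sample title, so the replicate block was not run. The counts of clock genes called stayed within 1.5 times in all settings tried. Scaling by the mean log2 CPM turned Nr1d2 against CON to 0.18, and Per3, Cry2, and Ciart against MAL to 0.031, 0.084, and 0.15. Offsets for length and GC content turned Cry1 against CON to -0.033 and Per3 against MAL to 0.069. Both together, a setting chosen after seeing the data, turned Clock, Per3, and Nr1d2 against CON to 0.19, 0.12, and 0.15, and Clock, Per3, and Cry2 against MAL to 0.16, 0.28, and 0.21. None of these values passed the threshold, and the cause was not tested. In each of these settings Arntl was called higher against CON (0.73, 0.67, and 0.89). With single libraries left out, Nr1d2 ran from -0.27 to 0.0088 against CON and from -0.032 to 0.10 against MAL, and Ciart from -0.19 to 0.070 against MAL. The number of relations to Arntl past the threshold was 3 by Spearman rho, and 0 to 3 with single libraries left out. The relation of Arntl and Per1 in CON and MAL had rho = -0.18, and its r ran from -0.59 to 0.25 with single libraries left out. That of Arntl and Clock ran from -0.24 to 0.27. Mean CPM by DESeq2 size factors stayed within 1 SD in all 30 group means of members. Counts of Rorb were as low as 4 in MAL-BG replicate 4, although MAL-BG libraries were the deepest, so small changes there were not detectable.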
